A study of Mus musculus with 36 samples.

Results

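CircRNAs of wild-type C57BL/6 mouse brain were compared between 9 and 6 months of age. The comparison used 3 circRNA libraries of each age, WT 1, WT 2 and WT 3, which are 6 of the 36 libraries of the series, and every row of the circRNA count table, 15690 circRNAs. The libraries were chosen by genotype, age and library kind as the labels give them, and no measured value entered the choice. The series as a whole also holds APP/PS1 mice, transgenic for the APP695swe and PS1-dE9 mutations, at the same ages, and long RNA and small RNA libraries. The wild-type groups carry neither mutation and no treatment is named for them. The 6 APP/PS1 circRNA libraries, 3 of each age, served here only to estimate the spread and to ask whether an age change differed between genotypes. Whether each library stands for its own animal is not stated, and the p-values below therefore speak of library-to-library spread, part of which may be technical. Sex and brain region are not stated in the labels.

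CircRNAs are closed RNA loops made when the spliceosome joins the end of an exon to the start of the same or an earlier exon, a reaction called back-splicing. Having no free ends, they resist the exonucleases that degrade linear RNA, and neurons, which do not divide, are known to hold many of them. Accumulation of circRNAs with age has been described in neural tissue of flies and mice, and an age comparison in wild type asks whether individual circRNAs shift over a few months of adult life. The counts are relative to the circRNA reads of a library, so a rise of all circRNAs together would not show in them.

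The table names each circRNA by an identifier and gives neither a host gene nor a position, so circRNAs are reported by identifier and no sequence is printed. How the numbers were assigned is not stated, so nearby identifiers are not taken as nearby positions. Of the 15690 identifiers, 1197 begin with mmu_circ, the form used by the circBase catalogue, and 14493 begin with novel_circ. The catalogued class was far more abundant per member. Its median level over the 6 wild-type libraries was 132 CPM (read count scaled to the circRNA reads of the library), against 15.3 CPM for the novel_circ class. The catalogued class took 44.4% ± 0.706 of the reads at 6 months and 44.2% ± 0.25 at 9 months (mean ± SD, n = 3 libraries per age). CircRNAs with a mean of at least 100 CPM numbered 1786, or 11.4% of those listed, and they held 69.0% of the reads. The 120 circRNAs of at least 1000 CPM, 103 of them catalogued, held 25.9%.

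Depth differed far more among the libraries of 9 months than among those of 6 months. Total circRNA reads were 379837, 294807 and 340287 in WT 1, 2 and 3 of 6 months, and 654147, 247998 and 361689 in WT 1, 2 and 3 of 9 months. Both the deepest and the shallowest library were therefore of 9 months, and they enclosed all 3 libraries of 6 months. The number of circRNAs detected was highest in the deepest and lowest in the shallowest library, with 13534, 12719 and 13253 at 6 months and 14447, 12163 and 13541 at 9 months. At the depth of the shallowest library, the expected number of circRNAs with at least 2 reads was 12250 ± 63.4 at 6 months and 12161 ± 202 at 9 months (exact two-sided permutation test, p = 0.6). With 3 libraries against 3 that test cannot go below 0.1. Across 8 such library measures, which included the share of reads in the 10 and the 100 most abundant circRNAs of each library and the share in the catalogued class, the exact permutation p ran from 0.4 to 0.9 and the Benjamini-Hochberg adjusted p was 0.9 for each. The 10 leading circRNAs of a library held 6.67% ± 0.364 of its reads at 6 months and 6.94% ± 1.12 at 9 months.

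**Figure D1:**
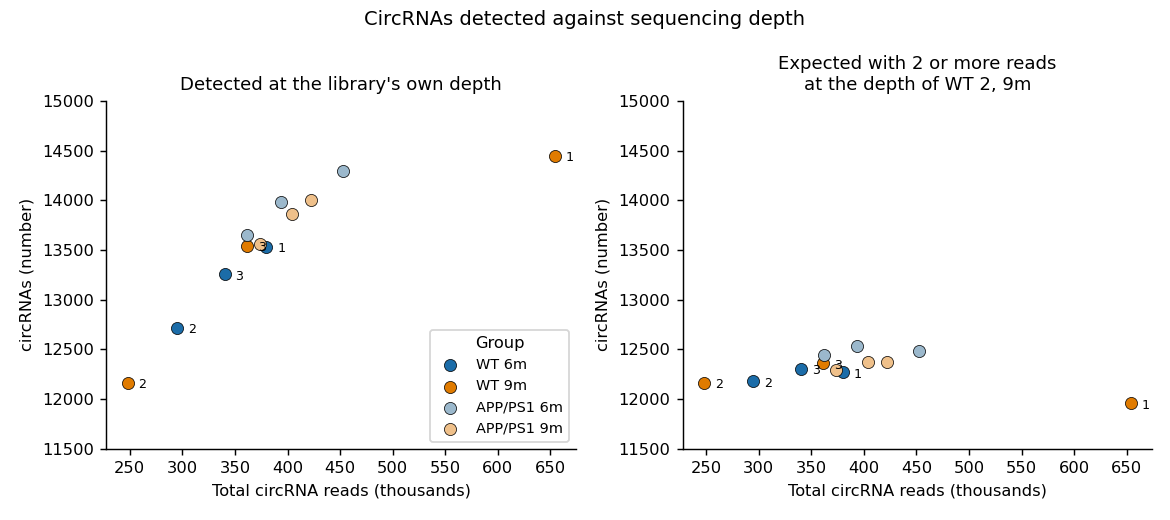
Number of circRNAs against total circRNA reads for the 12 circRNA libraries, coloured by group, with wild-type libraries numbered. Left, detected circRNAs, which range in wild type from 12163 to 14447; right, the number expected with at least 2 reads at the depth of WT 2 of 9 months, which lies between 11957.5 and 12361.7 in wild type.

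Pairs of 6 months were as alike as, or slightly more alike than, the pairs that crossed the ages. Pairs of 9 months were not more alike than the crossing pairs. Spearman correlations of log2 CPM across the 14872 tested circRNAs, which are not independent replicates, ran from 0.775 to 0.783 among the 3 pairs of 6 months and from 0.721 to 0.768 among the 3 pairs of 9 months. The 9 pairs that crossed the ages gave 0.732 to 0.775. These values are descriptive, since low counts and depth enter them.

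Most of the leading circRNAs held much the same level at both ages. The most abundant was mmu_circ_0000057, at 12982, 13792 and 13559 CPM in WT 1, 2 and 3 of 6 months and 17132, 15512 and 14255 CPM at 9 months. All 3 libraries of 9 months lay above those of 6 months, but the change was not called (log2 0.24, SE 0.11, edgeR adjusted p = 0.748). Next among those with steady levels were mmu_circ_0001605 (7487 ± 972 CPM at 6 months and 8252 ± 2079 at 9 months) and mmu_circ_0001829 (5759 ± 548 and 5890 ± 533). The level of mmu_circ_0000349 was 4688 ± 126 CPM at 6 months and 4565 ± 308 at 9 months, and mmu_circ_0001589 lay at 4105 ± 152 and 3865 ± 304 CPM.

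Of the 20 most abundant circRNAs 18 were catalogued and 2 of the novel_circ class, and none was called changed with age by edgeR. For 18 of the 20 the coefficient of variation over the 6 libraries was 4.60% to 26.5%. Their log2 changes from 6 to 9 months ran from −0.23 to 0.48, 13 above and 5 below 0, with 3 at an unadjusted p under 0.05, against 6.27% of all tested circRNAs. Those 3 were mmu_circ_0000057, novel_circ_0029293 (log2 0.48, SE 0.18, adjusted p = 0.658) and mmu_circ_0000199 (log2 0.30, SE 0.13, adjusted p = 0.721). For mmu_circ_0000199 the 6-month libraries held 2572, 2693 and 2874 CPM and the 9-month libraries 3371, 2948 and 3569 CPM, without overlap. For novel_circ_0029293 the values were 2888, 2405 and 2386 CPM at 6 months and 4478, 2605 and 3345 CPM at 9 months, which overlapped. Several leaders stood apart in WT 1 of 9 months, the deepest library. In that library mmu_circ_0000489, mmu_circ_0001516 and mmu_circ_0000363 had their lowest wild-type values (2698, 2174 and 1925 CPM) and mmu_circ_0001125 its highest (7861 CPM).

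The remaining pair among the 20 switched between libraries of the same age. novel_circ_0044209 lay at 55.3, 15539 and 15487 CPM in WT 1, 2 and 3 of 6 months, and at 13852, 16190 and 22.1 CPM at 9 months. Each age thus had 2 libraries near the top of the table and 1 with hardly any reads. mmu_circ_0000723 was at 11708 CPM in WT 1 of 6 months and 8648 CPM in WT 1 of 9 months, and was listed at 0 in the other 4 wild-type libraries. In neither did the libraries split by age, and both had adjusted p-values of 1. Of the 3394 circRNAs with a mean of at least 50 CPM in wild type, 91, or 2.68%, were listed at 0 in at least 1 wild-type library. The count columns hold 0 or at least 2 reads and never 1, so a circRNA listed at 0 may have been below a minimum, and no bound on a fold was taken from zeros.

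**Figure D2:**
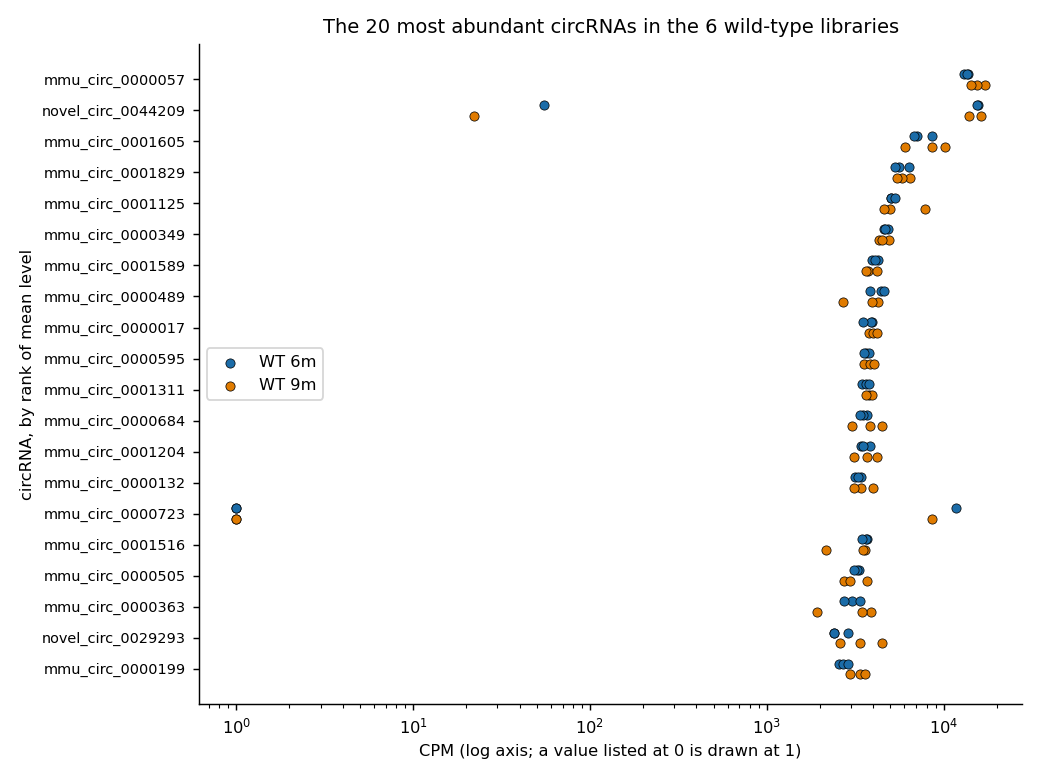
Level in CPM, on a log axis, of the 20 most abundant circRNAs in each of the 6 wild-type libraries, with 6 months in blue and 9 months in orange, and a value listed at 0 drawn at 1. In 18 of the 20 the libraries lie close together (coefficient of variation up to 26.5%), while novel_circ_0044209 and mmu_circ_0000723 fall to few or no reads in libraries of either age.

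Between 6 and 9 months 9 of 14872 tested circRNAs were called in wild type (0.0605%), 7 higher at 9 months (0.0471%) and 2 lower (0.0134%), with edgeR's quasi-likelihood test at a Benjamini-Hochberg adjusted p under 0.05. Over all 14872 tested circRNAs, log2 changes were above 0 for 7714 and below 0 for 7154, with a median of 0.02. Scaling the libraries to one another tends to centre the changes near 0, so this near-even split is not a finding about the repertoire. The share above 0 was 51.9%, and 48% without WT 1 of 9 months. At an unadjusted p under 0.05 there were 933 circRNAs, 523 higher and 410 lower, against 743.6 by chance. The 3 libraries of 9 months did not overlap those of 6 months in 1691 circRNAs, or 11.4% of those tested. By chance alone a share of about 0.1 would separate with 3 libraries against 3 and no tied values. Simulated counts of 14411 circRNAs carried known changes in this comparison. Of these, 0 of 66 changes of 1.5-fold, 3 of 66 of 2-fold and 22 of 65 of 4-fold were called, with 2 false calls. The changed circRNAs were drawn at random from all tested, whose median level was 18.1 CPM over the 12 libraries. Over all levels together, few changes of 2-fold or less would thus be called at this depth and spread. No rate by level was computed, so these rates do not describe the abundant circRNAs.

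**Figure D3:**
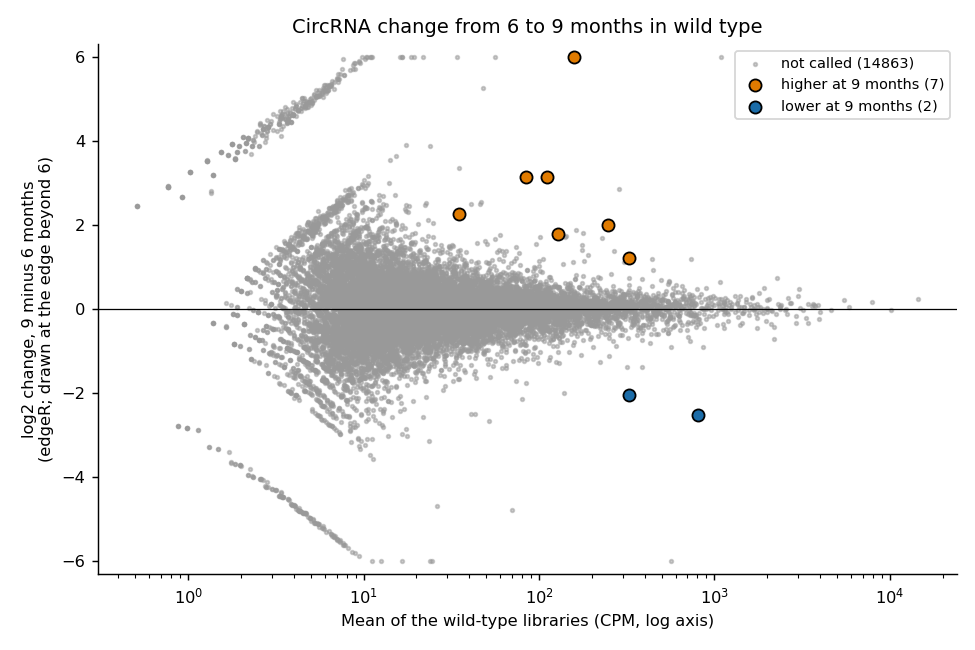
Log2 change from 6 to 9 months against the mean level in wild type (CPM, log axis) for the tested circRNAs, with values beyond 6 drawn at the edge. The 7 circRNAs called higher are orange and the 2 called lower are blue; the grey bulk is centred on a median of 0.02, and the arms at low level are circRNAs listed at 0 at 1 of the ages.

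All 9 calls fell among the circRNAs above 31.5 CPM (mean over the 12 circRNA libraries), the most abundant of 3 tiers of equal size. In that tier 9 of 4957 were called (0.182%), 172 (3.47%) had a log2 change beyond 1 in either direction, and the median size of the change was 0.24. In the lowest tier, under 11.7 CPM, 0 of 4958 were called, while 1876 (37.8%) had a log2 change beyond 1 and the median size was 0.75. At an unadjusted p under 0.05 there were 383 circRNAs in the most abundant tier and 320 in the lowest. The middle tier, with 0 of 4957 called, had 230. About 248 would come by chance in each tier. By class, 3 of 1196 catalogued circRNAs were called (0.251%), 1 higher and 2 lower, and 6 of 13676 novel_circ members (0.0439%), all 6 higher. The median log2 change was 0.01 in the catalogued class and 0.03 in the novel_circ class.

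The circRNA with the smallest p was novel_circ_0045011. It lay at 23.7, 20.4 and 20.6 CPM in WT 1, 2 and 3 of 6 months, from 9, 6 and 7 reads, and at 90.2, 250.0 and 257 CPM at 9 months, from 59, 62 and 93 reads. The 6-month libraries lay close together, though on few reads, and every 9-month library was above them, WT 1 the least. The rise was 3.15 on the log2 scale (SE 0.41, edgeR adjusted p = 0.00466). This was the sole call that held whichever of the 12 libraries was dropped, with an adjusted p of at most 0.0421. It was not called with edgeR's own expression filter or with limma voom (adjusted p = 0.0505 and 0.0976).

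The rise was of like size in novel_circ_0003597, which held 21.1, 10.2 and 20.6 CPM at 6 months and 177, 141 and 138 CPM at 9 months (log2 3.13, SE 0.51, edgeR adjusted p = 0.0422). The lowest 9-month library was well above the highest 6-month library. novel_circ_0034374 was the least abundant of the calls, at 10.5, 10.2 and 14.7 CPM at 6 months, from 4, 3 and 5 reads, and 50.4, 64.5 and 58.1 CPM at 9 months (log2 2.26, SE 0.40, adjusted p = 0.0422). Here too the ages were separate. The closeness of the 6-month values rests on those few reads and is not read as a small spread between samples.

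novel_circ_0002739 rose from 50.02, 187 and 67.6 CPM to 431, 351 and 387 CPM (log2 2.003, SE 0.35, adjusted p = 0.0422). WT 2 of 6 months was the highest of its age, and without it the change was larger (log2 2.75, adjusted p = 0.00067). novel_circ_0041488 rose from 76.3, 37.3 and 61.7 CPM to 217, 169 and 210.1 CPM (log2 1.78, SE 0.32, adjusted p = 0.0422). mmu_circ_0001378, the catalogued member of the group that rose, went from 192, 170 and 232 CPM to 532, 302 and 517 CPM (log2 1.23, SE 0.22, adjusted p = 0.0422). In each of these the libraries of the ages were separate.

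The remaining circRNA called higher, novel_circ_0010579, was listed at 0 in all 3 libraries of 6 months and lay at 367, 250.0 and 332 CPM in those of 9 months, from 240, 62 and 120 reads (adjusted p = 0.0422). No fold is given, because of the zeros.

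Both circRNAs called lower were catalogued. mmu_circ_0001548 fell from 532, 478 and 567 CPM at 6 months to 97.8, 149 and 135 CPM at 9 months, a log2 change of −2.05 (SE 0.36, edgeR adjusted p = 0.0422), with the ages well apart. mmu_circ_0000011 was at 2069, 1818 and 249.8 CPM at 6 months and at 226, 229.8 and 257 CPM at 9 months (log2 −2.51, SE 0.45, adjusted p = 0.0422). Its call came from WT 1 and WT 2 of 6 months alone. WT 3 of that age lay within the 9-month range, so the ages overlapped, and without WT 1 or WT 2 of 6 months the circRNA was not called (adjusted p = 0.177 and 0.148). Without WT 3 the fall was larger (log2 −3.001, adjusted p = 1.58e-07).

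Apart from novel_circ_0045011, no call held whichever library was dropped. The count was 5, 6 and 3 without WT 1, 2 and 3 of 6 months, and 1, 3 and 3 without WT 1, 2 and 3 of 9 months. It was 3, 14 and 14 without APP/PS1 1, 2 and 3 of 6 months, and 2, 9 and 3 without those of 9 months. The APP/PS1 libraries are not part of the contrast, but they enter the filter on low counts, the scaling and the estimate of the spread. Each of those 8 lost its call without at least 5 of the 6 wild-type libraries in turn, and their adjusted p-values reached 0.133 to 0.21. The fit to the 6 wild-type libraries alone called 8 circRNAs, 4 of them among the 9.

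For most of these 9 circRNAs the APP/PS1 libraries, at both of their ages, lay nearer wild type of 9 than of 6 months. Their reads do not enter the wild-type means but do enter the estimate of the spread, and so the choice of calls. How often this holds over all tested circRNAs was not computed. The number within the wild-type 9-month range was 6 of 6 for mmu_circ_0001378, 5 for novel_circ_0045011, novel_circ_0003597 and novel_circ_0041488, and 4 for mmu_circ_0001548. It was 2 for novel_circ_0010579, novel_circ_0002739 and mmu_circ_0000011, and 0 for novel_circ_0034374. For novel_circ_0045011 the APP/PS1 libraries ranged from 125 to 272 CPM with a median of 155, and all 6 were above every wild-type library of 6 months. All 6 were also above that group for novel_circ_0003597, novel_circ_0034374 and mmu_circ_0001378. For novel_circ_0003597, APP/PS1 1 of 6 months was barely so, at 22.1 against 21.1 CPM in WT 1 of 6 months, from 8 reads each. For novel_circ_0034374 the APP/PS1 libraries formed a middle level, from 23.7 to 39.6 CPM, below all 3 wild-type libraries of 9 months. For novel_circ_0010579, novel_circ_0002739 and novel_circ_0041488, 5 of 6 were above wild type of 6 months. The APP/PS1 libraries of mmu_circ_0000011 held 191 to 291 CPM, near WT 3 of 6 months and the 9-month group.

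Single APP/PS1 libraries lay with wild type of 6 months. APP/PS1 2 of 6 months held 72.9 CPM of novel_circ_0041488 and APP/PS1 3 of 6 months 185 CPM of novel_circ_0002739, both within that group's range. APP/PS1 1 of 6 months did so for a pair of the calls. It held 481 CPM of mmu_circ_0001548, while the other 5 APP/PS1 libraries held 135 to 189 CPM. It held 22.1 CPM of novel_circ_0003597, and the other 5 held 139 to 155 CPM. For mmu_circ_0001548 and novel_circ_0003597 the 12 libraries thus fell into a high and a low set that did not follow age alone. APP/PS1 3 of 9 months was at 0 for novel_circ_0010579, as were the 3 wild-type libraries of 6 months.

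**Figure D4:**
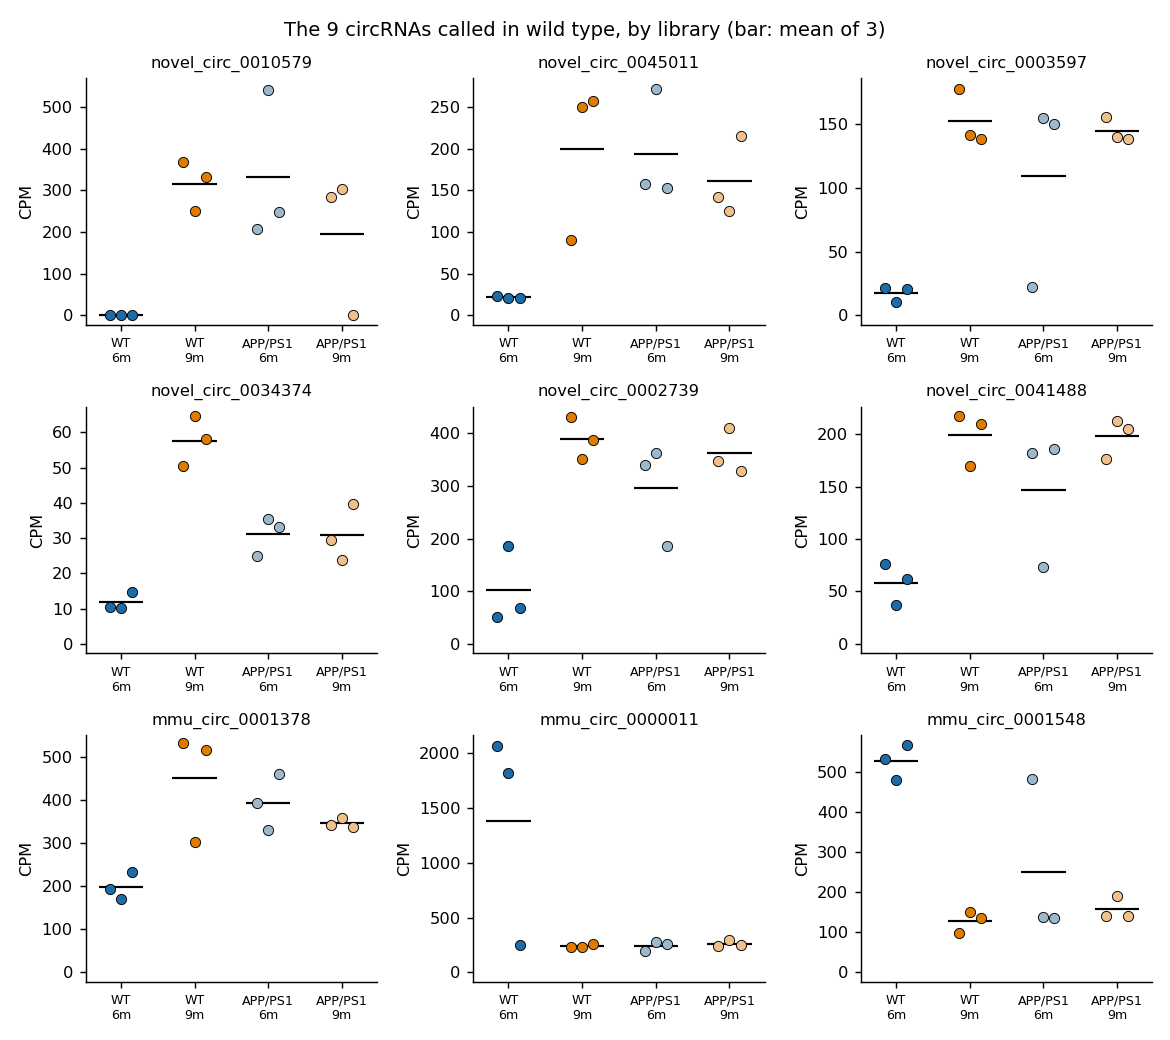
Level in CPM of the 9 circRNAs called between 6 and 9 months in wild type, in each of the 12 circRNA libraries by group; points are libraries and bars are means of 3. The APP/PS1 libraries of both ages mostly lie nearer wild type of 9 than of 6 months, apart from a middle level in novel_circ_0034374. In mmu_circ_0000011 only WT 1 and WT 2 of 6 months stand apart.

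Of the 15690 circRNAs listed, 499 were at 0 in all 3 libraries of 6 months and above 0 in at least 1 of 9 months, and 280 showed the reverse. Neither these counts nor the next were adjusted for depth. The deepest library of 9 months, WT 1, held 654147 reads, against 379837 in WT 1, the deepest of 6 months. The excess in 1 direction is therefore not read as more circRNAs appearing with age. With reads required in all 3 libraries of the other age, 179 were at 0 in all 3 libraries of 6 months and above 0 in all 3 of 9 months, and 105 were at 0 in all 3 of 9 months and above 0 in all 3 of 6 months. Of these 99 and 56 passed the filter on low counts, and 1 and 0 were called. The most abundant was novel_circ_0007040, listed at 0 at 6 months and at 2513, 2476 and 1523 CPM at 9 months, from 1644, 614 and 551 reads. It was not called in the fit to the 12 libraries (adjusted p = 0.0989). It was called in the fit to the wild-type libraries alone (adjusted p = 5.9e-05), with replicate numbers as a block (3.84e-09) and without APP/PS1 2 of 9 months (5.81e-08). APP/PS1 2 of 9 months was the sole APP/PS1 library with reads of it, at 1674 CPM, and the other 5 were at 0.

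novel_circ_0010580, whose identifier follows that of novel_circ_0010579, was at 0 at 6 months and at 99.4, 113 and 124 CPM at 9 months (adjusted p = 0.0631, not called). It was called in the wild-type libraries alone (adjusted p = 0.00447) and without APP/PS1 3 of 9 months (0.00183), and also without APP/PS1 2 of 6 months. novel_circ_0020267 was at 0 at 6 months and at 19.9, 36.3 and 55.3 CPM at 9 months (adjusted p = 0.116). In the other direction, novel_circ_0010838 went from 76.3, 30.5 and 41.1 CPM at 6 months to 0 in all 3 libraries of 9 months (adjusted p = 0.103). novel_circ_0034358 (36.9, 30.5 and 76.4 CPM), novel_circ_0049664 (15.8, 27.1 and 55.8 CPM) and novel_circ_0046346 (31.6, 20.4 and 23.5 CPM) were also at 0 throughout 9 months, with adjusted p-values of 0.338, 0.435 and 0.449. Among these novel_circ_0046346 was at 0 in every APP/PS1 library too, so its reads came from wild type of 6 months only. Other tools differed on these: DESeq2 called novel_circ_0010580, novel_circ_0020267 and novel_circ_0010838, limma voom called novel_circ_0046346, and the replicate block called novel_circ_0010580 and novel_circ_0034358.

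Whether an age change was particular to wild type was tested by the difference of the age changes between genotypes. That difference was called for 6 of 14872 circRNAs (0.0403%), and the age change in APP/PS1 for 2 of 14872 (0.0134%). Of the 9 circRNAs called in wild type 1 was among the 6, novel_circ_0045011. Its log2 change was −0.28 in APP/PS1 against 3.15 in wild type, a difference of −3.43 (SE 0.53, edgeR adjusted p = 0.0112). The difference was lost when WT 2 or WT 3 of 6 months was dropped, and likewise for APP/PS1 2 of 6 months and for library 1 of that genotype at 9 months (adjusted p at most 0.0748). It was also lost with edgeR's own expression filter and with limma voom (adjusted p at most 0.136). For the other 8 the difference did not pass the threshold. The adjusted p was 0.0515 for novel_circ_0010579 and 0.171 for mmu_circ_0001378, and 0.245 to 0.729 for the rest, which does not show that the genotypes changed alike.

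The largest support for a difference was in novel_circ_0015795, which had opposite directions in the genotypes. In wild type it lay at 86.9, 74.6 and 79.3 CPM at 6 months and at 29.0, 16.1 and 27.6 CPM at 9 months (log2 −1.61, SE 0.32, edgeR adjusted p = 0.0631). That fall was not called, although DESeq2 and edgeR with robust dispersion did call it. In APP/PS1 it rose from 24.9, 22.1 and 22.9 CPM to 109.7, 173 and 178 CPM (log2 2.71, SE 0.31, adjusted p = 0.000621). The difference was 4.32 (SE 0.45, adjusted p = 0.000121) and stayed called whichever library was dropped. Wild type of 9 months and APP/PS1 of 6 months were thus at one low level, and the other groups were higher.

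novel_circ_0015649 and novel_circ_0015639 ran the other way. novel_circ_0015649 was at 0 in wild type of 6 months and at 24.5, 8.06 and 30.4 CPM at 9 months (16, 2 and 11 reads). In APP/PS1 it was at 52.5, 55.2 and 35.6 CPM at 6 months and at 0 at 9 months. novel_circ_0015639 was at 0 in wild type of 6 months, at 21.4, 36.3 and 41.5 CPM in wild type of 9 months, at 52.5, 59.7 and 22.9 CPM in APP/PS1 of 6 months, and at 5.35, 0 and 0 CPM in APP/PS1 of 9 months. The difference had an adjusted p of 0.00271 for each and stayed called whichever library was dropped. The change within wild type was not called for either by edgeR (adjusted p = 0.0918 and 0.054), but both were called by DESeq2 and by edgeR with robust dispersion.

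The last members of the 6 were abundant and changed by less. novel_circ_0027638 lay at 671, 638 and 626 CPM in wild type of 6 months and 378, 593 and 343 CPM at 9 months, and at 336 ± 24.8 and 629.99 ± 42.2 CPM in APP/PS1 of 6 and 9 months. The difference was 1.46 (SE 0.25, adjusted p = 0.034). mmu_circ_0000598 lay at 400.2, 421 and 453 CPM in wild type of 6 months and 534, 758 and 719 CPM at 9 months, and at 691 ± 64.6 and 287 ± 148 CPM in APP/PS1. The difference was −1.94 (SE 0.34, adjusted p = 0.0432). The wild-type ages did not overlap in either, yet the wild-type changes themselves were not called (adjusted p = 0.525 and 0.637). Dropping 1 library at a time ended both calls in 10 of 12 cases, with an adjusted p of at most 0.128 and 0.144.

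**Figure D5:**
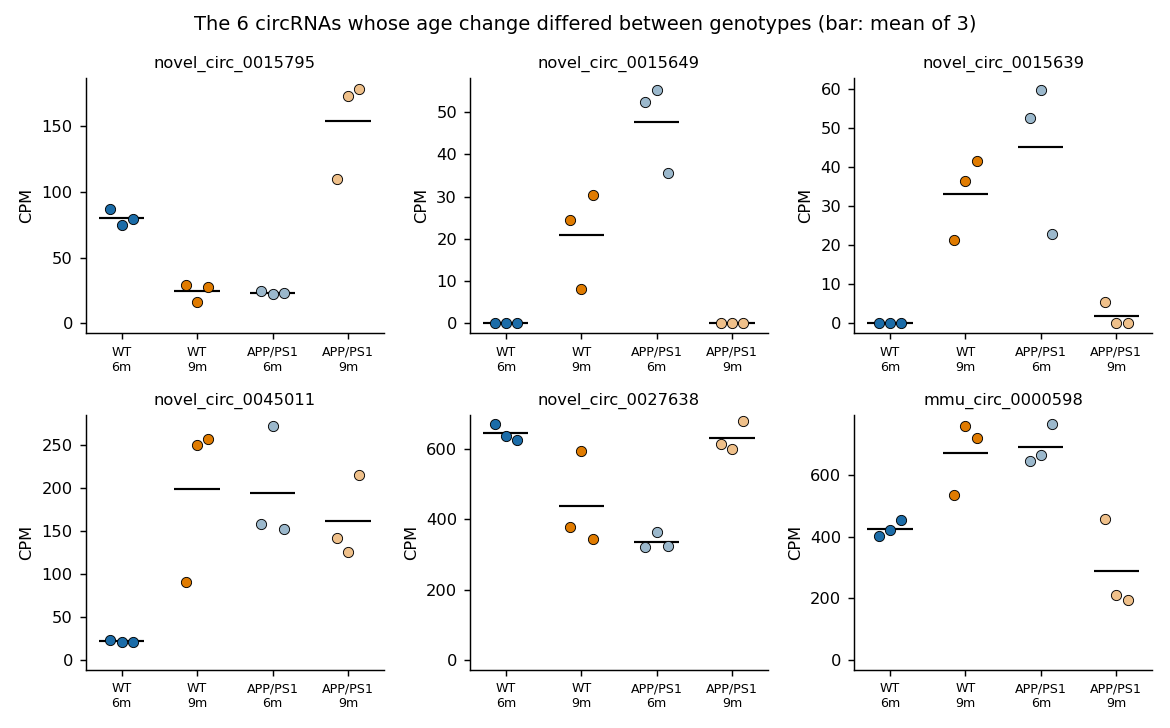
Level in CPM of the 6 circRNAs whose age change differed between genotypes, by library and group; bars are means of 3. In 5 of the 6 the 9-month libraries lie on opposite sides of the 6-month libraries in the 2 genotypes, and in novel_circ_0045011 the 3 wild-type libraries of 6 months (20.4 to 23.7 CPM) stand below all others.

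Genes listed as acting on circRNAs were looked up in the long RNA libraries of the same group labels. Levels are gene sums of FPKM, a level scaled to transcript length and library size. The labels do not say whether a long RNA and a circRNA library of the same number came from the same tissue. Of 25 listed factors 24 were tested, and 0 were called between the ages in wild type with limma, while 4 had an unadjusted p under 0.05. Over all 13593 genes 6 were called (0.0441%) and 10.3% had such a p. Of the factors that promote back-splicing, Qk (quaking, which binds introns beside the exons of a circRNA) was at 83.3 ± 3.95 FPKM at 6 months and 89.3 ± 3.78 at 9 months. Hnrnpl, a splicing regulator, was at 76.8 ± 1.14 and 71.2 ± 0.517 (log2 −0.11, adjusted p = 0.431) and Nova2, a splicing factor of neurons, at 31.3 ± 5.90 and 33.9 ± 1.03 (log2 0.13, adjusted p = 0.71).

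Among the factors that restrict back-splicing, Srsf1, a splicing factor, was at 6.23 ± 0.162 and 7.84 ± 0.660 FPKM (log2 0.32, SE 0.09, adjusted p = 0.306). Adarb1, an enzyme that edits adenosines in double-stranded RNA, was at 36.6, 45.05 and 43.6 FPKM at 6 months and at 21.1, 21.2 and 42.5 at 9 months (log2 −0.63, SE 0.21, adjusted p = 0.358). WT 3 of 9 months was at the level of 6 months, and without it Adarb1 was called (log2 −0.97, limma adjusted p = 0.00292). The APP/PS1 libraries of both ages held 38.4 to 42.1 FPKM, so WT 1 and WT 2 of 9 months alone stood apart. Of the export factors, Xpo4 was at 3.72 ± 0.653 and 3.36 ± 0.210 FPKM (log2 −0.13, adjusted p = 0.705) and Ythdc1, a reader of methylated adenosine, at 16.8 ± 0.737 and 18.0 ± 1.13 (log2 0.10, adjusted p = 0.684). Of the genes listed under decay, Ythdf2 was at 12.5 ± 0.278 and 13.4 ± 0.135 FPKM (log2 0.10, adjusted p = 0.443). Gigyf1, whose part in circRNA decay was not tested here, was at 11.2 ± 0.287 and 10.5 ± 0.616 (log2 −0.08, adjusted p = 0.643).

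Neuronal markers were high and photoreceptor markers near 0 in these long RNA libraries, as the brain label implies. The 6 neuronal markers summed to 1659 to 1827 FPKM per wild-type library, and 8 photoreceptor genes of the retina, the tissue that the extraction text names, to 1.24 to 1.68 FPKM. For 4 of 13 marker lists the summed levels did not overlap between the ages, although 0 of their members were called with limma. Over all single genes tested, 17.7% did not overlap. Of the choroid plexus genes 12 of 12 had a log2 change above 0 (median log2 1.34, against −0.0035 over all genes), and they summed to 58.2, 399 and 66.7 FPKM in WT 1, 2 and 3 of 6 months and 423, 462 and 482 FPKM at 9 months. WT 2 of 6 months was near the 9-month level and the other 6-month libraries far below. For Clic6, Sostdc1, Prlr and Cldn2 it was above every wild-type library of 9 months. Ttr, which encodes transthyretin, was at 1.34, 267 and 6.94 FPKM at 6 months and 309 ± 20.7 at 9 months (log2 4.42, adjusted p = 0.345). In APP/PS1 it also varied within each age, at 90.7, 302 and 277 FPKM at 6 months and 102, 66.4 and 273 FPKM at 9 months. Of the striatal genes 9 of 9 had a log2 change below 0 (median −0.30), as did 6990 of all 13593 genes. Their sums were 492, 458 and 437 FPKM at 6 months and 386, 383 and 355 FPKM at 9 months. Adora2a, which encodes an adenosine receptor, was at 16.0 ± 1.82 and 11.9 ± 0.423 FPKM (log2 −0.42, limma adjusted p = 0.131). In APP/PS1 Adora2a was at 12.6, 11.1 and 11.6 FPKM at 6 months and 13.4, 14.4 and 14.0 FPKM at 9 months. Each of these was below every wild-type library of 6 months. Not every striatal gene did so: Tac1 reached 44.7 FPKM in APP/PS1 2 of 9 months, above its wild-type range. Sums of the 4 endothelial genes (44.1 to 49.5 and 51.1 to 60.5 FPKM) and of the 4 hippocampal genes (68.6 to 69.5 and 63.05 to 66.4 FPKM) did not overlap between the ages either. The hippocampal members went both ways, Wfs1 (log2 −0.10) and Cpne4 (−0.16) below 0 and Prox1 (0.24) and Dsp (0.31) above, so that the lower sum came with a median log2 of 0.07. In bulk tissue, more cells of a type and more RNA per cell cannot be told apart. The part of these tissue markers, and of library depth, in the circRNA changes was not tested.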

How the data were processed

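CircRNA and long RNA libraries of wild-type and APP/PS1 mouse brain were analysed. The deposited circRNA table holds whole-number read counts per circRNA and, named TPM by the authors, CPM: each count divided by its library's total. The mRNA table holds FPKM per transcript, made by the authors. Bowtie 0.12.2 and the build mm8 appear, without a role, per the submitters' processing notes. Which program called circRNAs, with which filters, is not given in the sources used here.

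A circRNA was tested when 3 or more libraries held 2 or more of its reads and the sum reached 20, which left 14872. The test was edgeR 4.0.16 quasi-likelihood (R 4.3.3, TMM scaling) on all 12 circRNA libraries with 4 group means, two-sided, at an adjusted p under 0.05. TMM factors were 0.9432 to 1.052. SEs were derived from the log2 change and its F statistic. Levels are the deposited CPM, as mean ± SD over 3 libraries. Wild-type libraries held 247998 to 654147 reads. No molecular tags are named in the labels, so amplification is not corrected for. Gene sums of FPKM were tested with limma 3.58.1 on log2(FPKM + 0.25), a scale that understates changes of low genes, for a mean of at least 0.5 FPKM. The test was tried on simulated data.

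Named circRNAs were those called with a mean of 10 reads or more (up to 12 per direction), the 20 most abundant, the 4 per direction most abundant among those at 0 throughout 1 age and above 0 throughout the other, and the 3 of smallest p for the difference between genotypes. The other circRNAs called for that difference, and the companions of called circRNAs, were named after their values were seen. Named genes were up to 2 per factor list by size of change, and members of marker lists whose sums did not overlap; Qk was added. Comparison and lists were chosen with earlier results of these data known. Alternatives varied the filter, scaling, test (DESeq2 1.42.0, limma voom, robust edgeR, limma on log2(CPM + 1)), replicate block and libraries.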

Additional observations from a re-analysis of the deposited data

Results flagged for a closer look

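For 6 circRNAs the test of the difference itself found another age change in APP/PS1 than in wild type, with edgeR adjusted p-values of 0.000121 for novel_circ_0015795, 0.00271 for novel_circ_0015649, 0.00271 for novel_circ_0015639, 0.0112 for novel_circ_0045011, 0.034 for novel_circ_0027638 and 0.0432 for mmu_circ_0000598. In novel_circ_0015795 the 9-month libraries were below all 6-month libraries in wild type and above them in APP/PS1. In novel_circ_0015649 and novel_circ_0015639 they were above in wild type and below in APP/PS1. These 3 differences were called under each alternative and without each library in turn.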

How the results depend on the processing

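The count of 9 circRNAs called in wild type was 9 with no filter on low counts, with DESeq2 size factors and with library totals, the same 9 each time. It was 0 with edgeR's filterByExpr (486 at an unadjusted p under 0.05 of 7098 tested), 28 with the DESeq2 Wald test (all 9 among them), 4 with limma voom (2 of the 9), 16 with robust dispersion (4 of the 9), 1 with limma on log2(CPM + 1), and 1 to 14 with a library left out. The count of 2 in APP/PS1 was 1, 8, 4 and 8 with filterByExpr, DESeq2, voom and robust dispersion, and 1 to 10 with a library left out. The 6 differences between genotypes became 3 with filterByExpr and 10 with DESeq2, and 3 to 9 with a library left out. With the replicate number as a block within genotype the counts were 18 (7 of the 9 among them), 12 and 13. The numbers were not shown to pair the libraries: same-numbered wild-type libraries had deviations correlated at 0.0615, 0.0405 and −0.0085, and WT 3 of 6 months correlated best with another number. The 0 factor genes called became 1 at most with a library left out, and stayed at 0 with the block. Differences in library measures between the ages moved by less than 1 SD with a library left out, but 6 of the 7 recomputed changed sign. Without WT 1 of 9 months the differences were −33467 for total reads, −317 for detected circRNAs, 12.45 at equal depth, −0.295 for the top 10 share and −0.372 for the top 100 share (percentage points). Without WT 1 of 6 months that of the catalogued share was 0.197, and without WT 2 of 6 months that of detected circRNAs was −9.83. Of 903 values of single circRNAs under an alternative, 135 lost a call, 13 gained 1 and 0 reversed. The cause of these changes was not tested.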

Other observations

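Some of the called circRNAs had companions with the same pattern over the 12 libraries, chosen here after their values were seen. novel_circ_0049712 followed mmu_circ_0001548. It held 47.4, 50.9 and 52.9 CPM in wild type of 6 months and 58.0 CPM in APP/PS1 1 of 6 months, and at most 5.53 CPM in the other 8 libraries.

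novel_circ_0002733, close in number to novel_circ_0002739, held 39.5, 139 and 35.3 CPM in wild type of 6 months and 268, 286 and 205 CPM at 9 months, again with WT 2 the highest of its age at 6 months. Its edgeR adjusted p was 0.054, and it was called by DESeq2, by limma voom and with the replicate block.

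The switching of novel_circ_0044209 extended to APP/PS1, where 53.4 CPM in library 3 of 6 months and 30.8 CPM in library 2 of 9 months stood against 14819 to 16915 CPM in the other 4. novel_circ_0044168, close to it in number, had its lowest values in the same libraries, with 34.2 CPM against 109 and 176 CPM in wild type of 6 months, and 41.5 CPM in WT 3 against 112 and 177 CPM in WT 1 and WT 2 of 9 months. mmu_circ_0000723 was at 10885, 10762 and 11437 CPM in APP/PS1 of 6 months and at 0 in all 3 libraries of 9 months (edgeR adjusted p = 0.58 for the age change in APP/PS1).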
